A study of Mus musculus with 12 samples.

Results

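The 8 genes described here encode 5 oocyte NLR family proteins with a pyrin domain (Nlrp2, Nlrp4f, Nlrp5, Nlrp9b and Nlrp14) and 3 further proteins of the subcortical maternal complex of the mouse egg (Ooep, Tle6 and Padi6). They were given by name, with no threshold on their values, and all 8 were found among the 11298 genes with complete values in the deposited expression table. RNA of germinal vesicle (GV) oocytes, 1-cell embryos and 2-cell embryos was sequenced from C57BL/6 mice that were wild type (WT) for Pabpn1l or carried its knockout (KO). The product of Pabpn1l binds poly(A) tails in the oocyte and early embryo. The 12 Smart-seq2 libraries formed 6 groups of 2, namely WT and KO at each of the 3 stages, and 10 oocytes or embryos went into each library. Oocytes came directly from the animal, whereas embryos were grown in the medium KSOM. Whether KO describes the mother, the embryo or both is not said in the labels, which name no agent or further allele. Separate animals for the libraries of a group are not stated either, so p-values measure only the spread between these libraries, which may be technical.

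The subcortical maternal complex is a large protein assembly beneath the membrane of the egg and early embryo, built from proteins that the growing oocyte stores. NLRP5, also called MATER, was among the first products of maternal-effect genes described in the mouse, and embryos of mothers that lack it arrest in early cleavage. OOEP (FLOPED), TLE6, PADI6 and KHDC3 (FILIA) are further proteins of the complex or of the cytoplasmic lattices tied to it. Messenger RNA of such genes is made during oocyte growth, stored, and then removed when the oocyte matures and the embryo takes over its own transcription.

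Values are FPKM, fragments scaled to transcript length and to the mapped fragments of a library, so levels of different genes are compared per length. No value lay below 1 FPKM, which is called the floor, and the number of reads behind each value is unknown. In the 8 embryo libraries every deposited value above the floor was a 6-digit FPKM times 1 number per library. This library factor was 0.269 and 0.212 in WT and 0.432 and 0.552 in KO 1-cell embryos, and lay between 0.116 and 0.130 in the 2-cell libraries. It was 1 in oocytes. Its basis is not given in the sources used here, so each result is stated as deposited and again before the factor. Over the 6227 genes above the floor in all 1-cell libraries, the median log2 difference between KO and WT was 0.89 as deposited and 0.01 before the factor. In 2-cell embryos it was 0.09 and 0.05 over 3949 genes. Pabpn1l itself measured 220.1 and 203.9 FPKM in WT against 7.23 and 4.98 in KO oocytes, and 16.4 and 12.2 against 2.57 and 4.55 in 1-cell embryos. The 2-cell values were close to the floor, with WT libraries at 1.18 and 1 and KO libraries at 1.00 and 1.90, so the targeted gene does not check the labels there. All 5 oocyte markers were above the floor in each oocyte library. Of 11 cumulus and granulosa cell markers 4 were in the table, and before the factor they summed to between 45.7 and 52.1 FPKM in WT and between 43.7 and 44.7 in KO 1-cell embryos. Their sums in 2-cell embryos were 18.5 and 25.0 in WT and 9.39 and 13.6 in KO, with 2 or 3 of the 4 at the floor. In the oocyte libraries these 4 summed to between 69.3 and 84.4 FPKM. Of 7 sperm markers 3 were in the table, with sums of 59.1 to 73.1 FPKM in oocytes, most of it Ldhc at 40.4 to 54.0, so they did not mark sperm here. Their sums were 8.03 to 12.5 FPKM before the factor over the 1-cell libraries, 13.3 and 14.1 in WT 2-cell embryos and all 3 at the floor in KO 2-cell embryos. Of 7 blood and immune cell markers 3 were in the table, and before the factor their sums were 12.1 and 12.7 FPKM in WT, 12.7 and 18.5 in KO 1-cell embryos, and 10.0 and 11.1 in WT and 17.9 and 31.8 in KO 2-cell embryos. The part of such cells in the results was not tested. Of 5 markers of the 2-cell embryo 2 were in the table, and both were near the floor in 2-cell embryos. Usp17l5 measured 1.54 and 1.71 FPKM in WT 2-cell embryos and was at the floor in the other 10 libraries, those of KO 2-cell embryos included. At the 2-cell stage D5Ertd577e stood at 1 and 1.01 FPKM in the WT libraries and at 1.93 and 2.02 in the KO libraries, but at 35.4 to 44.3 in the oocyte libraries, so it did not mark the 2-cell stage here.

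The end of a transcript is shown first, because it carries the signals that set the poly(A) tail to which poly(A)-binding proteins attach. The last 100 bases of 1 GENCODE transcript per gene (build GRCm38) were searched on the transcript strand for the polyadenylation signals AATAAA and ATTAAA and for the cytoplasmic polyadenylation elements TTTTAT and TTTTAAT, which in oocytes can promote lengthening of the tail. A polyadenylation signal was found in 6 of the 8 genes, and in 78.6% of 19288 mouse genes searched in the same way. Runs of 30 bases around the last signal read as follows, 5′ to 3′ and with the matched letters in capitals.
Nlrp2: atcactggtatattggggAATAAAagggaa
Nlrp4f: tgctgttttgtgTTTTATATTAAAgaatag
Nlrp5: aggatgtagcaagaatgaAATAAAcacagc
Nlrp9b: tatattacaagcacatttAATAAAcactaa
Tle6: agatcccgagttgcgtgtAATAAAacaatt
Padi6: acaaattgccatagagccAATAAAgcatgg
Only Nlrp4f of these 8 genes held a cytoplasmic polyadenylation element, a TTTTAT that starts 6 bases before its signal ATTAAA. Such an element was present in 17.9% of all genes searched, and an element together with a signal in 14.4%. In the windows of Nlrp14 and Ooep neither motif was found, which says only that these letters are not in these 100 bases. A match is a description of letters and not of a working site.

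All 8 genes were abundant in GV oocytes, and none passed the test for a difference between the genotypes there. Ooep, a small KH-domain protein of the complex, was highest in WT, at 2082 and 2621 FPKM in the 2 libraries, and ranked 16 among all genes by group mean. It was followed by Nlrp14, an NLR protein of oocytes and early embryos, at 1874 and 2007 FPKM, and by Padi6, an egg member of the peptidylarginine deiminase family, at 1937 and 1898. The libraries of Nlrp14 and Padi6 overlapped, so their order cannot be told. Tle6, a relative of the Groucho co-repressors, measured 1080 and 757.6 FPKM and Nlrp4f 728.8 and 657.0. Their means lay closer together than the spread of Tle6, at 919 ± 228 against 693 ± 50.8 FPKM (SD, n = 2). Nlrp5 measured 416.5 and 416.1 FPKM. Nlrp9b at 273.4 and 237.2 and Nlrp2 at 181.9 and 151.1 FPKM were the lowest of the 8.

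The group means of KO oocytes had the same order. Ooep measured 2279 and 2708 FPKM, Nlrp14 2196 and 1632, and Padi6 1949 and 1569. Tle6 measured 1048 and 631.8, Nlrp4f 753.4 and 624.0, Nlrp5 416.0 and 350.7, Nlrp9b 280.9 and 226.6, and Nlrp2 193.9 and 135.1. The ranges of the genotypes overlapped for 7 genes, and for Nlrp5 both KO libraries lay below the WT libraries, 1 of them by less than 1 FPKM. With limma and Benjamini-Hochberg adjustment over all genes, 0 of 8 were called higher and 0 lower, against 0.584% and 1.04% of all genes (0.876% and 1.69% before the factor, where the pooled spread of the fit differs). None had an unadjusted p under 0.05, and the log2 differences ran from −0.15 for Tle6 to 0.09 for Ooep. Their median was −0.03, beside −0.02 over all genes.

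**Figure D1:**
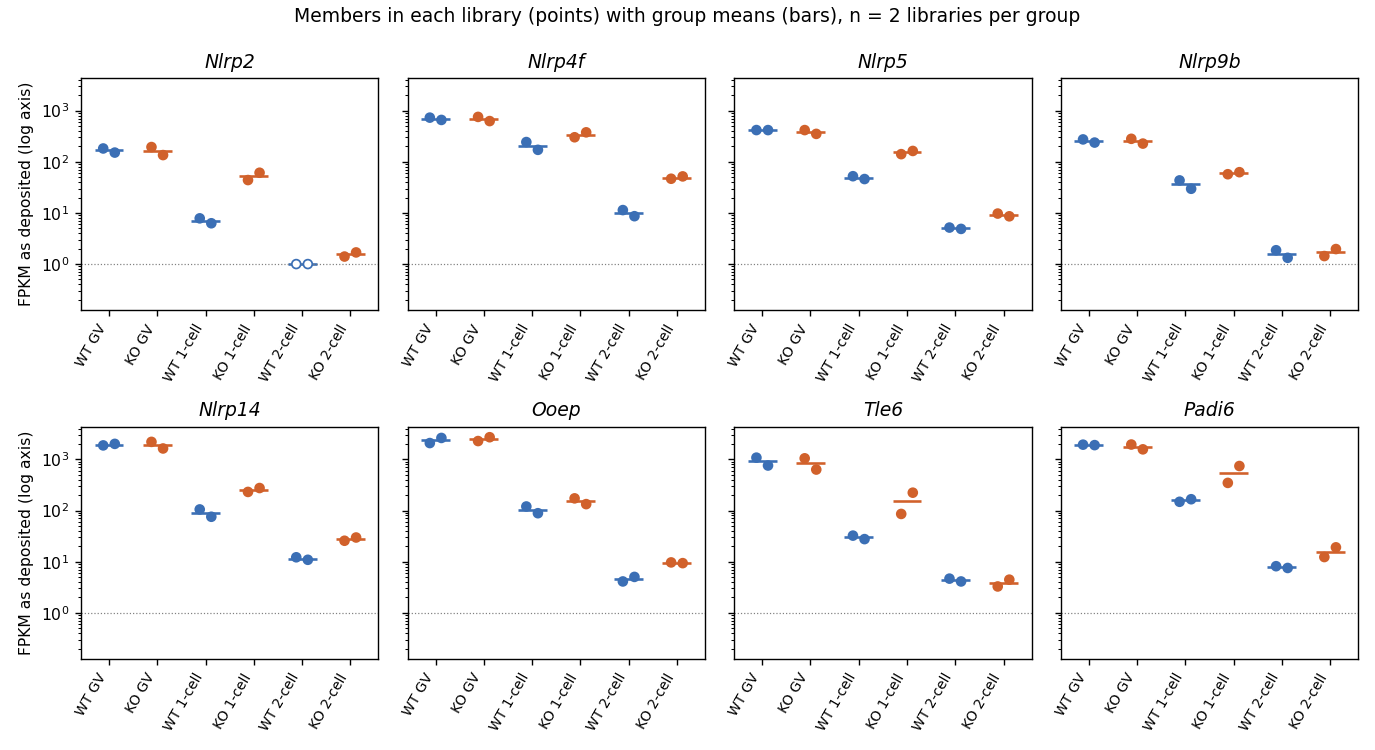
FPKM as deposited (log axis) of the 8 genes in the 12 libraries, with WT in blue and KO in orange, points for libraries, bars for group means and open points for values at the floor, which the dotted line marks at 1 FPKM. Oocyte groups overlap, every gene is lower in embryos, and KO points lie above WT points for all 8 genes at the 1-cell stage and for 6 genes at the 2-cell stage.

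In WT embryos all 8 genes fell at each step as deposited. From oocytes to the 1-cell stage the log2 changes ran from −4.88 ± 0.42 (SE) for Tle6 to −1.76 ± 0.22 for Nlrp4f, with a median of −3.99. All 8 were called lower (limma, adjusted p between 1.66e-07 and 5.06e-05), as were 85.8% of all genes, whose median change was −1.49 (−1.91 over the 6245 above the floor in all libraries of the contrast). None was called higher, against 0.0354% of all genes (8.67% before the factor). Less RNA per embryo and fewer embryos in a tube cannot be told apart in such libraries. Before the factor 6 of the 8 were called lower, against 21.1% of all genes. The exceptions were Nlrp4f, whose value was 0.30, and Nlrp9b, at −0.76 (limma adjusted p = 0.322 and 0.054). As a share of its own WT oocyte mean before the factor, Nlrp4f stood at 123.2% in 1-cell embryos, Nlrp9b at 58.8% and Nlrp5 at 49.3%. Padi6 stood at 34.7%, and Nlrp14, Ooep, Nlrp2 and Tle6 lay between 13.6% and 19.2%. The order of the genes thus differed between stages: Nlrp4f, which ranked 5 of 8 in oocytes, was the highest of the 8 in WT 1-cell embryos, and Tle6 moved from rank 4 to rank 7.

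From the 1-cell to the 2-cell stage in WT, all 8 were called lower on both scales, against 29% of all genes as deposited and 14.9% before the factor. None was called higher, against 9.45% and 21%. The median change was −3.44 as deposited and −2.78 before the factor, and over all genes, many of them at the floor, it was 0.00 on both. Over the 4551 genes above the floor in all libraries of the contrast it was −0.67 and 0.15. Ooep and Nlrp4f changed by −4.23 ± 0.22 each as deposited. Nlrp2 changed by −1.66 ± 0.19 before the factor, a value limited by the floor that both WT 2-cell libraries had reached. In these embryos Ooep stood at 0.194% of its oocyte mean as deposited and at 1.62% before the factor. Nlrp4f stood at 1.44% and 12.1%, and Nlrp5 at 1.21% and 10.1%.

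In 1-cell embryos 7 of the 8 genes were called higher in KO than in WT as deposited, and 2 of the 8, Nlrp2 and Nlrp5, before the factor. As deposited 52.7% of all genes were called higher with limma and Benjamini-Hochberg adjustment, and before the factor 7.36%. None of the 8 was called lower, against 0.0974% and 2.26% of all genes. The median log2 difference of the 8 was 1.55 as deposited, beside 0.57 over all genes, and 0.53 before the factor, beside 0.00.

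Among genes of the complex itself, Nlrp5 measured 52.2 and 45.9 FPKM in the WT libraries, against 140.8 and 162.6 in KO 1-cell embryos. Both KO libraries lay above both WT libraries, and they did so before the factor too, at 325.9 and 294.8 against 193.8 and 216.3. The ratio of means was 3.09 as deposited and 1.51 before the factor (log2 difference 1.61 ± 0.15 SE, limma adjusted p = 0.000106, and 0.60, adjusted p = 0.0219). Ooep, by contrast, measured 119.9 and 88.6 FPKM in the WT libraries, against 172.8 and 133.3 in KO, which missed the threshold (0.55 ± 0.22, limma adjusted p = 0.0572). Before the factor its KO libraries, at 399.9 and 241.6, lay below its WT libraries, at 445.1 and 417.1 (−0.47, adjusted p = 0.343). As deposited Ooep was called higher without the first WT 1-cell library (0.77, limma adjusted p = 0.0289) and when only genes averaging 5 FPKM or more were tested (0.55, adjusted p = 0.0366).

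Tle6 and Padi6 showed wide spread between the KO libraries. Tle6 measured 32.3 and 27.6 FPKM in WT but 85.7 and 223.1 in KO 1-cell embryos (2.18 ± 0.42, limma adjusted p = 0.00288). Before the factor the values were 119.9 and 130.0 against 198.4 and 404.5, again without overlap, and the difference missed the threshold (1.18, adjusted p = 0.105). Padi6 measured 148.1 and 166.2 FPKM in the WT libraries, against 346.7 and 741.0 in KO (1.69 ± 0.33, limma adjusted p = 0.00324). Its values before the factor were 549.7 and 782.5 in WT against 802.3 and 1343 in KO, which did not overlap and did not pass (0.66, adjusted p = 0.314). For both genes the second KO library was the higher one.

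Of the other NLR genes Nlrp2 had the largest difference of the 8. Nlrp2 is a maternal-effect gene of the mouse, and it measured 7.83 and 6.28 FPKM in WT against 43.9 and 61.0 in KO 1-cell embryos, a ratio of means of 7.43 (2.72 ± 0.22, limma adjusted p = 5.48e-05). The libraries stood well apart before the factor as well, at 29.1 and 29.6 against 101.5 and 110.6 (ratio 3.62, log2 difference 1.82, adjusted p = 0.000908). KO 1-cell embryos thus held 64.5% of the KO oocyte level of Nlrp2 before the factor, where WT embryos held 17.6% of theirs.

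Nlrp14 measured 105.0 and 75.5 FPKM in the WT libraries, against 230.8 and 275.1 in KO (1.49 ± 0.22, limma adjusted p = 0.000816). Before the factor the values were 389.9 and 355.3 against 534.2 and 498.6, with no overlap and a difference of 0.47 that did not pass (adjusted p = 0.174). Nlrp4f and Nlrp9b were the NLR genes whose direction depended on the scale. Nlrp4f measured 242.7 and 171.1 FPKM in the WT libraries, against 301.3 and 376.1 in KO (0.72 ± 0.22, limma adjusted p = 0.023), but 901.3 and 805.5 against 697.3 and 681.7 before the factor, where KO was the lower (−0.31, adjusted p = 0.491). Nlrp9b, an NLR gene also known from innate immunity of the gut, measured 43.2 and 29.6 FPKM in the WT libraries, against 57.1 and 62.5 in KO (0.72 ± 0.22, adjusted p = 0.0207). Its values before the factor were 160.5 and 139.6 against 132.1 and 113.4 (−0.29, limma adjusted p = 0.735). The calls of Nlrp4f and Nlrp9b were lost without the second WT or the second KO 1-cell library (adjusted p between 0.104 and 0.153).

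In 2-cell embryos 4 of the 8 genes, Nlrp4f, Nlrp14, Ooep and Nlrp5, were called higher in KO than in WT, as deposited and before the factor alike. Over all genes 7.56% were called higher as deposited and 10.6% before the factor. These shares include the genes at the floor, between 5121 and 6561 in each 2-cell library. A share without them was not computed. None of the 8 was called lower, against 12% and 17.8% of all genes. The median log2 difference of the 8 was 0.82 as deposited and 0.83 before the factor, beside 0.00 over all genes on both scales. For the 3949 genes above the floor in all 2-cell libraries it was 0.09 and 0.05.

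Nlrp4f had the largest difference, at 11.4 and 8.63 FPKM in WT against 46.6 and 51.7 in KO 2-cell embryos, a ratio of means of 4.92 (limma adjusted p = 0.00017). Before the factor it measured 97.7 and 70.3 in WT and 357.4 and 426.9 in KO (ratio 4.67, log2 difference 2.22 ± 0.18 SE, adjusted p = 5e-05). The lower KO library was thus several times the higher WT library on either scale. Relative to its oocyte mean before the factor, Nlrp4f stood at 56.9% in KO and at 12.1% in WT 2-cell embryos. Its 3′ end is the one printed above with both a polyadenylation signal and a cytoplasmic polyadenylation element. Whether this end has a part in the difference was not tested.

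Nlrp14 measured 12.2 and 10.9 FPKM in the WT libraries, against 25.6 and 29.7 in KO 2-cell embryos (1.19 ± 0.22, limma adjusted p = 0.00418). Before the factor it stood at 104.8 and 88.6 against 196.8 and 244.8 (1.18, adjusted p = 0.0013). Neither scale showed any overlap. Nlrp5 measured 5.17 and 4.87 FPKM in the WT libraries, against 9.71 and 8.58 in KO, a ratio of means of 1.82 (0.75 ± 0.15, limma adjusted p = 0.00777, and 0.78, adjusted p = 0.00192, before the factor). Ooep, not called at the 1-cell stage, measured 4.10 and 5.04 FPKM in the WT libraries, against 9.67 and 9.36 in KO, a ratio of 2.08 (0.92 ± 0.22, limma adjusted p = 0.0155, and 0.97, adjusted p = 0.014). The Ooep libraries did not overlap. Its call was lost without either WT or either KO 2-cell library (limma adjusted p between 0.0532 and 0.109).

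The remaining genes did not pass at the 2-cell stage. Padi6 measured 8.15 and 7.53 FPKM in the WT libraries, against 12.3 and 19.1 in KO, with no overlap (0.89 ± 0.33, limma adjusted p = 0.107, and 0.88, adjusted p = 0.0743, before the factor). It passed when only genes averaging 5 FPKM or more were tested (limma adjusted p = 0.0179), under quantile normalization (0.0415) and under median-ratio scaling (0.0166). Tle6 measured 4.66 and 4.10 FPKM in the WT libraries, against 3.28 and 4.45 in KO, and Nlrp9b 1.86 and 1.33 in WT and 1.43 and 1.97 in KO. Both sets of libraries overlapped, with differences of −0.15 ± 0.42 and 0.06 ± 0.22. Both WT libraries listed Nlrp2 at the floor, and the KO libraries at 1.40 and 1.69 FPKM (0.35 ± 0.22, limma adjusted p = 0.434), so no ratio is given. With quantile normalization Nlrp2 was called higher (1.54, limma adjusted p = 0.000106). Levels of Nlrp2 and Nlrp9b at this stage were too close to the floor to show a small difference.

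**Figure D2:**
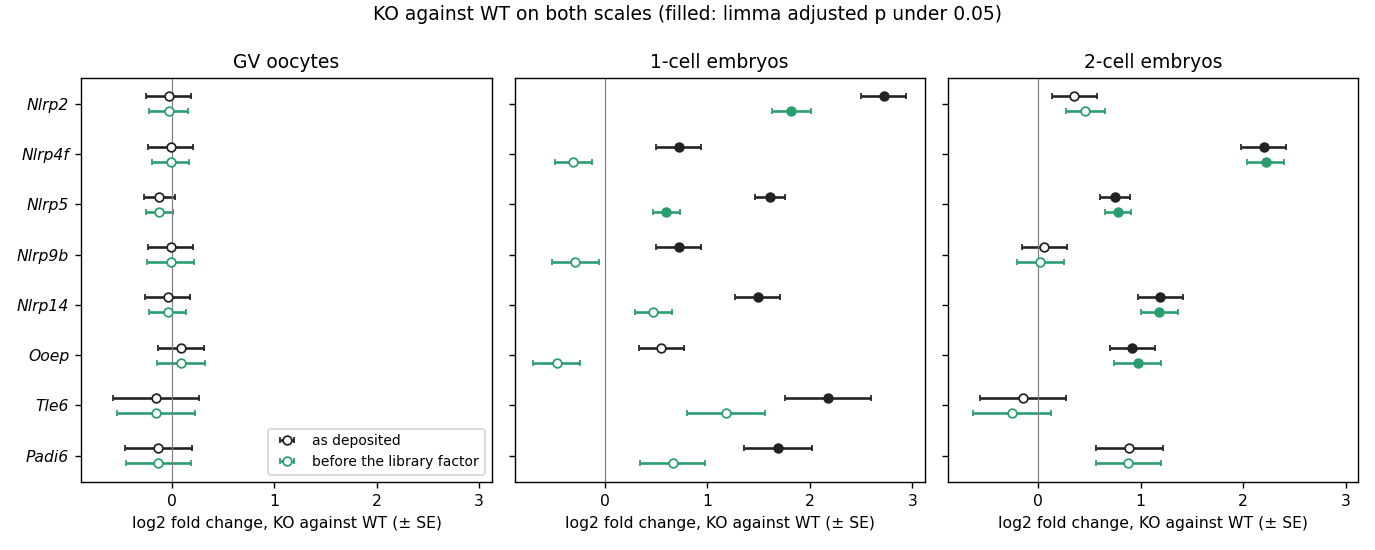
Log2 fold change of KO against WT for the 8 genes at each stage, as deposited (black) and before the library factor (green), with standard errors of the limma fit and filled points for an adjusted p under 0.05. Both scales coincide in oocytes and nearly so in 2-cell embryos, whereas in 1-cell embryos all values before the factor lie lower, for example at 1.82 against 2.72 for Nlrp2 and at −0.31 against 0.72 for Nlrp4f.

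The steps from stage to stage were also measured within KO embryos. From oocytes to the 1-cell stage all 8 genes fell as deposited, with a median of −1.92, where 66.9% of all genes were called lower and the median over all genes was −0.74 (−0.90 over the 7782 above the floor throughout). Before the factor 4 of the 8 were called lower, Ooep (−2.99), Nlrp14 (−1.87), Tle6 (−1.52) and Nlrp9b (−1.04), against 16.1% of all genes. None was called higher, against 0.23% as deposited and 6.83% before the factor. In KO 1-cell embryos Nlrp4f held 100.1% of its oocyte mean on that scale, Nlrp5 81.0%, Nlrp2 64.5% and Padi6 61.0%, and none of these 4 passed. Ooep held 12.9%, the least of the 8. From the 1-cell to the 2-cell stage in KO, all 8 fell on both scales, against 60.7% of all genes as deposited and 15.4% before the factor, and none was called higher, against 0.646% and 9.91%. The changes before the factor ran from −3.18 for Tle6 to −0.82 for Nlrp4f.

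Whether a step differed between genotypes was tested as the KO change minus the WT change. From oocytes to the 1-cell stage, 5 of the 8 genes were called higher as deposited (Nlrp2, Tle6, Padi6, Nlrp5 and Nlrp14), against 38.7% of all genes. Before the factor 1 of the 8, Nlrp2, was called higher, against 2.24%. None was called lower, against 0.859% and 0.505%. The difference for Nlrp2 was 2.75 ± 0.32 (limma adjusted p = 0.000947) as deposited and 1.85 (adjusted p = 0.0199) before the factor. From the 1-cell to the 2-cell stage, Nlrp4f alone of the 8 was called higher as deposited, against 0.239% of all genes, at 1.48 ± 0.32 (limma adjusted p = 0.00713). Nlrp4f and Ooep were called higher before the factor, against 5.91% of all genes, at 2.53 (adjusted p = 0.000538) and 1.44 (adjusted p = 0.0233). Lower values were called for Nlrp2, Tle6 and Nlrp5 as deposited, against 35.7% of all genes, and for Nlrp2 before the factor (−1.35, limma adjusted p = 0.0118), against 15.8%. WT 2-cell embryos were at the floor for Nlrp2, so its second-step difference has no fixed size, and with quantile normalization it was −0.05 (limma adjusted p = 0.881). Both steps share the 1-cell libraries.

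The share of a library's summed FPKM that the 8 genes held depends on the factor only through the floor. Values at the floor were left out of the sums, for between 900 and 1045 genes in oocyte and between 5121 and 6561 in 2-cell libraries. In WT 2-cell embryos Nlrp2 was among them. It was 1.48% and 1.46% in WT and 1.51% and 1.31% in KO oocytes, with ranges that overlapped. In 1-cell embryos it was 0.614% and 0.650% in WT and 0.591% and 0.720% in KO, again with overlap. In 2-cell embryos it was 0.0990% and 0.0782% in WT and 0.192% and 0.220% in KO, so both KO libraries lay above both WT libraries. With 2 libraries a group, an exact two-sided permutation test cannot give a p below 0.333, so the share was not tested. The gene with the largest share changed as well: Ooep led in each oocyte library, Nlrp4f in WT and Padi6 in KO 1-cell embryos by group mean, and Nlrp14 in WT and Nlrp4f in KO 2-cell embryos.

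**Figure D3:**
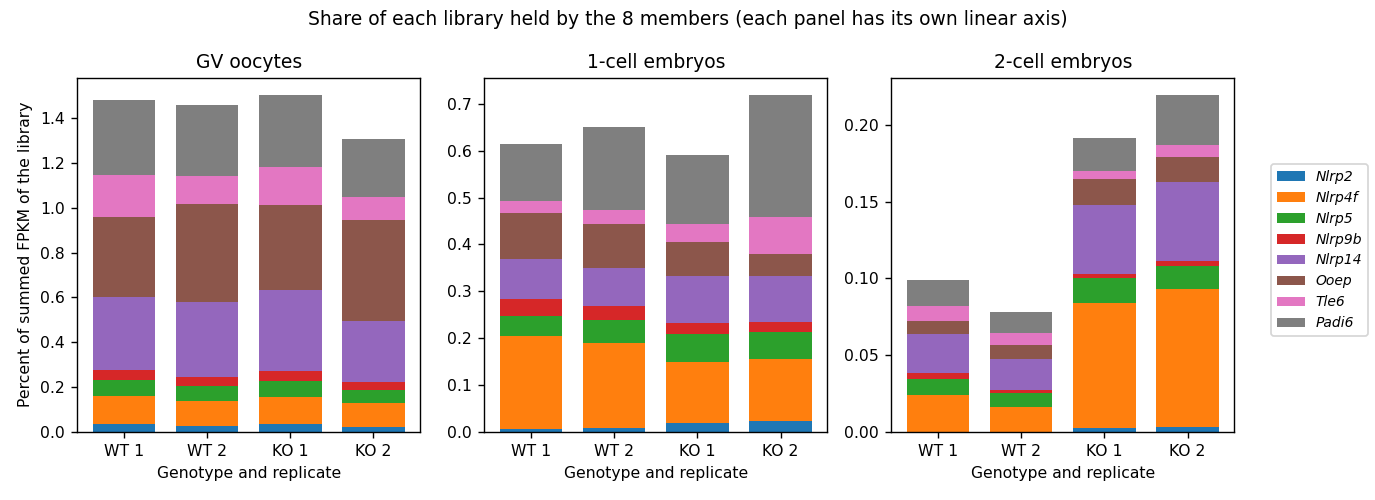
Percent of the summed FPKM above the floor that each of the 8 genes held in each library, stacked by gene, with a separate linear axis for each stage. The stacks of WT and KO overlap in height in oocytes and 1-cell embryos, and in 2-cell embryos the KO stacks reach 0.192% and 0.220% against 0.0990% and 0.0782%, with Nlrp4f as the largest part.

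The family and the partners of the 8 genes were described by lists. Of 16 other NLR genes with a pyrin domain or close to them, 7 were in the table, and all 7 were above the floor in at least 1 group. None was called in oocytes in either direction with limma, against 0.584% higher and 1.04% lower of all genes, and 1 had an unadjusted p under 0.05. At the 1-cell stage 6 of the 7 were called higher in KO as deposited and 0 before the factor, against 52.7% and 7.36% of all genes (limma, medians 1.10 and 0.09, and 6 with an unadjusted p under 0.05 as deposited). At the 2-cell stage 5 of the 7 were called higher on both scales, against 7.56% and 10.6% of all genes, with medians of 1.08 and 1.31. They were Nlrp4a, Nlrp4b, Nlrp4e, Nlrp9a and Nlrp9c, and Nlrp1a and Nlrp4c did not pass. Nlrp1a was at the floor in every embryo library, so it could not be called at either embryo stage. Nlrp4c was at the floor in both KO and 1 of the WT 2-cell libraries, so it could hardly be called there. Nlrp4a, a paralog of Nlrp4f, measured 4.53 and 4.13 FPKM in the WT libraries, against 14.9 and 25.4 in KO 2-cell embryos (1.94 ± 0.26, limma adjusted p = 0.00085). Its genotype difference from the 1-cell to the 2-cell stage was 1.05 as deposited, which did not pass, and 2.19 before the factor (adjusted p = 0.00822), on the side on which Nlrp4f lay. Fragments of such paralogs can be split or shared by the counting: of the 50-base windows of the transcript, 7.08% of those of Nlrp4f, 8.93% of those of Nlrp5 and 6.22% of those of Nlrp9b also occur in another gene, most often Nlrp4g, Nlrp5-ps and Nlrp9a. How far this alters the values of these 3 genes was not tested. For Nlrp2, Nlrp14, Ooep, Tle6 and Padi6 the share was between 0% and 1.39%.

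Khdc3, whose product FILIA is a further protein of the complex, had a larger 1-cell difference than any of the 8. It measured 342.1 and 331.1 FPKM in the WT libraries, against 374.8 and 313.9 in KO oocytes, 3.04 and 2.83 in WT and 66.4 and 113.6 in KO 1-cell embryos. At the 2-cell stage 3 of its 4 libraries were at the floor. The 1-cell difference was 4.48 ± 0.23 (limma adjusted p = 9.63e-06) and 3.75 before the factor (adjusted p = 4.22e-05). Of the other listed partners, Cfl1, the actin regulator cofilin, was called higher at the 1-cell stage as deposited (1.23, adjusted p = 0.0274) and not before the factor (0.20), and Zbed3, a protein bound to the complex, was not called (0.21 and −0.82). None of these 3 was called at the 2-cell stage or had an unadjusted p under 0.05 in the limma fit. Among 4 KH-domain relatives of Ooep, Dppa5a, which lies next to Ooep on chromosome 9, measured 17.5 and 15.5 FPKM in the WT libraries, against 334.8 and 256.6 in KO 1-cell embryos. That was a difference of 4.07 ± 0.22 (limma adjusted p = 9.78e-06), with 3.11 before the factor (adjusted p = 0.000294), where its neighbour Ooep was not called. Khdc1b was the other one called at that stage, as deposited, and Dppa5a alone of the 4 was called at the 2-cell stage (1.62, adjusted p = 0.000834).

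The paralogs of Tle6 and Padi6 stayed low. Of 5 listed TLE genes 3 were in the table, and their highest value in any library was 5.50 FPKM, of Tle4. In 2-cell embryos Tle4 and Aes were called lower in KO on both scales (−0.42 and −0.68 as deposited, limma adjusted p = 0.0189 and 0.0112), with KO values between 1 and 1.11 FPKM, whereas Tle6 was not called. Padi4, the only one of 4 listed PADI paralogs in the table, was called in none of the contrasts. It averaged 1.09 FPKM in WT and 1.07 in KO oocytes and was at the floor in every embryo library, so a call was hardly possible. Of 24 other oocyte and maternal-effect genes in the table, 0 were called in oocytes (limma, 0 with an unadjusted p under 0.05), and 23 were called higher in KO 1-cell embryos as deposited and 7 before the factor, against 52.7% and 7.36% of all genes. At the 2-cell stage 9 were called higher as deposited and 13 before the factor, against 7.56% and 10.6% of all genes, and 1, Dppa3, was called lower before the factor (−0.65, limma adjusted p = 0.0222). Their differences at that stage had medians of 0.73 and 0.66 beside the 0.82 and 0.83 of the 8 genes.

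**Figure D4:**
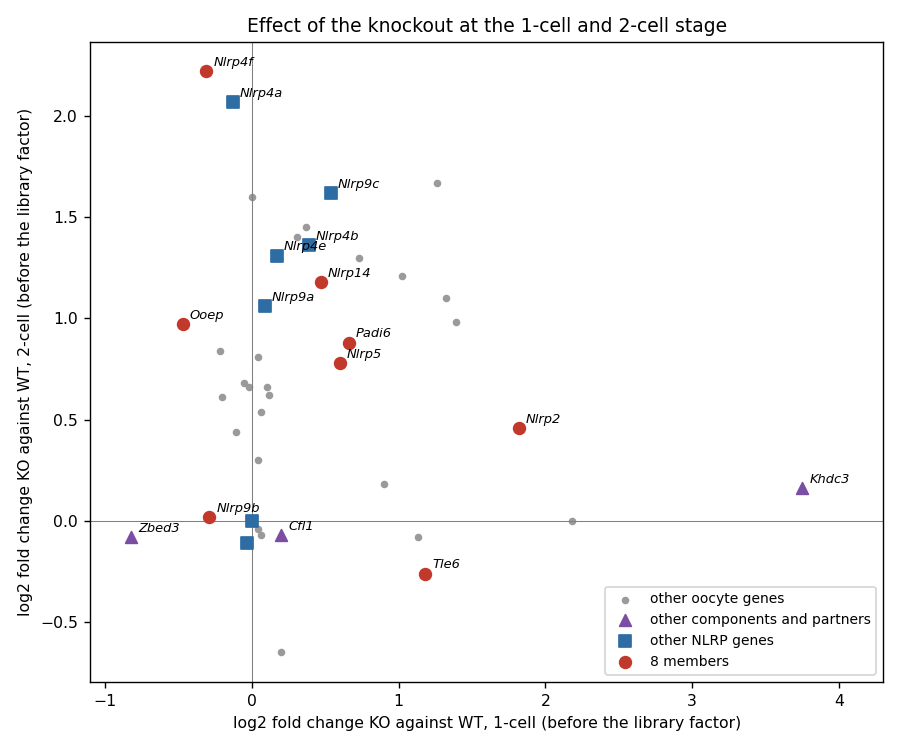
Log2 fold change of KO against WT before the library factor, with 1-cell embryos on the horizontal and 2-cell embryos on the vertical axis, for the 8 genes (red circles), 7 other NLRP genes (blue squares; the 2 without a name near the origin are Nlrp1a and Nlrp4c), 3 partners (purple triangles) and 24 other oocyte genes (grey points). Nlrp4f and Nlrp4a lie at the top, at 2.22 and 2.07 on the vertical axis and −0.31 and −0.13 on the horizontal axis, and Khdc3 lies farthest to the right, at 3.75.

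Across the 12 libraries, before the factor and on the log2 scale, the 8 genes followed one another closely with 1 exception. Pearson's r between pairs other than those with Nlrp4f lay between 0.890 and 0.988, and was highest for Nlrp5 with Padi6. For pairs with Nlrp4f it lay between 0.651, with Tle6, and 0.856, with Nlrp5. These values describe 12 libraries that share stages and depth and carry no test. Over 5537 genes (mean FPKM of 5 or more), the pattern of Nlrp4f was most like those of Nlrp4a (r = 0.983), the homeobox gene Obox1 (0.983) and Oxct1 (0.980). The genes most like Nlrp2 were Med17 (0.991), the growth factor gene Gdf9 (0.987) and Blvra (0.985), and those most like Nlrp5 were Fbxw18 (0.994), Smad2 (0.991) and Orc5 (0.988). Nlrp14 was closest to Fbxw21 (0.994), Ooep to E330023G01 (0.992), Tle6 to Gpr180 (0.993), Padi6 to Cd164l2 (0.991) and Nlrp9b to Ldhb (0.996).

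Promoters were searched because all 8 genes are strongly expressed in the oocyte. RefSeq promoters of GRCm38.p6, from 250 bases before to 50 after each start, were found for 7 of the 8 genes, all but Nlrp14. Both strands were searched for the NOBOX element TAATTG (NOBOX is an oocyte transcription factor), for the E-box CANNTG, the TATA box TATAAA, the GC box GGGCGG and the CCAAT box CCAAT. The NOBOX element was present in 3 of the 7, Nlrp9b, Ooep and Padi6, and in 8% of 32851 mouse promoters. The E-box was present in 6 of the 7 and in 72.3% of all promoters, the TATA box in 2 and 13.6%, the GC box in 4 and 35.7%, and the CCAAT box in 5 and 37.4%. Nlrp5 and Tle6 each had 2 promoters, and a match in either was counted. The 3 promoters with the element are printed 5′ to 3′ on the strand of the gene, with TAATTG or its reverse complement in capitals, which in Ooep overlap a CCAAT box. They are chr7:20007773-20008072 on the plus strand for Nlrp9b, chr9:78378539-78378838 on the minus strand for Ooep and chr4:140742594-140742893 on the minus strand for Padi6.
Nlrp9b: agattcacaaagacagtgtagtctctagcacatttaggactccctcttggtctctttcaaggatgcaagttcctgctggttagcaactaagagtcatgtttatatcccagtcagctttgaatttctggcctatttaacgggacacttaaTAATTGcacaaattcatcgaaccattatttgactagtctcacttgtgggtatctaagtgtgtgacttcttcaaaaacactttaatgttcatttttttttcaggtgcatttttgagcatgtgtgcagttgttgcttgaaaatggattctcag
Ooep: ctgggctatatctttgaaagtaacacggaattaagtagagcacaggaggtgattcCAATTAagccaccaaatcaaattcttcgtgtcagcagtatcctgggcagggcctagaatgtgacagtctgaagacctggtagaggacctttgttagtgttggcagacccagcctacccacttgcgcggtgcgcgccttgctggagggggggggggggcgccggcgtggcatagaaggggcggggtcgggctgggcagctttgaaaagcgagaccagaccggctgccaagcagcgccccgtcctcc
Padi6: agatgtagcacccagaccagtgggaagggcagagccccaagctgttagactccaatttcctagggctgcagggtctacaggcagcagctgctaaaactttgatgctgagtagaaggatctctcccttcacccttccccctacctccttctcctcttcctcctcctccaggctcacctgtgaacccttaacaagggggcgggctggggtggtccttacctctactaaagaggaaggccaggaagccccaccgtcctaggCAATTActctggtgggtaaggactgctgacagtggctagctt
In oocytes Ooep and Padi6 ranked 1 and 3 of the 8 genes and Nlrp9b ranked 7. Nlrp14, which ranked 2, had no promoter to search. Whether the element goes with abundance was not tested. A match of letters shows no binding.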

How the data were processed

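The authors deposited 1 table of FPKM values, per the file headers, made with TopHat2 2.1.1, Cufflinks 2.2.1 and the mm9 build per the submitters' processing notes. It held 11298 complete genes, and 1 incomplete entry was left out. It held 0 ERCC entries, although spike-in RNA was in the lysis buffer per the labels' protocols. The library factor was recovered from the decimals of the table (100% of values above the floor whole at 6 digits, tolerance 0.01). The digits fix it up to a power of 10, chosen to bring the total of each library nearest to a fixed value. Totals above the floor before the factor were then 413054 to 539810 FPKM in embryo and 578284 to 605495 in oocyte libraries. Values before the factor were raised to the highest floor of the stage, or of all libraries for stage steps.

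Fits used limma 3.58.1 in R 4.3.3 with an intensity trend on log2(FPKM + 1), with all 12 libraries in 1 fit and no replicate block. Fold changes on this scale understate those of low genes. Two-sided p-values were adjusted by Benjamini-Hochberg over 11298 genes, with a threshold of 0.05, and the fit was tested on simulated data. FPKM hold no read counts, so depth and counting intervals are unknown. Replicates correlated at r between 0.971 and 0.993 across genes, which are not independent.

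The 8 genes and all lists were chosen with earlier results of these data known. Each of the 8 is named, list genes only if above 1 FPKM in all libraries of a group, and the 3 genes with the highest r were taken as most like a gene. Khdc3 stands in the table under its older symbol 2410004A20Rik. Alternatives were the scale before the factor, a pseudocount of 0.1, a mean of at least 5 FPKM, quantile normalization, median-ratio size factors, the replicate block and leaving out each library.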

Additional observations from a re-analysis of the deposited data

Results flagged for a closer look

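As deposited, the change from one stage to the next differed between genotypes for 6 of the 8 genes in a direct test of the difference, the KO change minus the WT change (log2 scale, limma with Benjamini-Hochberg adjustment, 2 libraries per group). Over all genes 38.7% were called higher and 0.859% lower at the first step, and 35.7% lower and 0.239% higher at the second. Before the library factor 3 of the 8 passed at one step or both, Nlrp2, Nlrp4f and Ooep. On that scale 2.24% of all genes were called higher and 0.505% lower at the first step. At the second step 5.91% were called higher and 15.8% lower. The share of all genes called at either step was not computed. From oocytes to 1-cell embryos it was 2.75 ± 0.32 (SE) for Nlrp2 (adjusted p = 0.000947), 2.33 ± 0.59 for Tle6 (0.017), 1.82 ± 0.47 for Padi6 (0.018), 1.73 ± 0.22 for Nlrp5 (0.00125) and 1.53 ± 0.31 for Nlrp14 (0.00734). Before the library factor the value of Nlrp2 was 1.85 (adjusted p = 0.0199), and the other 4 did not pass, at 1.33 for Tle6, 0.79 for Padi6, 0.72 for Nlrp5 and 0.51 for Nlrp14 (adjusted p between 0.0608 and 0.725). As deposited, the calls of Tle6 and Padi6 were lost without the first WT or the second KO oocyte library or without the second WT 1-cell library, and that of Padi6 also without the second WT oocyte library (adjusted p between 0.0508 and 0.0747).

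From 1-cell to 2-cell embryos the difference was −2.37 ± 0.32 for Nlrp2 (limma adjusted p = 0.000744), −2.33 ± 0.59 for Tle6 (0.0154), −0.86 ± 0.22 for Nlrp5 (0.0154) and 1.48 ± 0.32 for Nlrp4f (0.00713). Before the factor Nlrp2 stood at −1.35 (adjusted p = 0.0118) and Nlrp4f at 2.53 (adjusted p = 0.000538), whereas Tle6 at −1.44 and Nlrp5 at 0.18 did not pass (adjusted p = 0.142 and 0.544). Ooep, not called as deposited (0.37), stood at 1.44 before the factor (adjusted p = 0.0233). WT 2-cell embryos were at the floor for Nlrp2, which limits how far its WT change could go, and with quantile normalization its difference was −0.05 (adjusted p = 0.881). The call of Tle6 was lost without the second WT 1-cell library, either WT 2-cell library or the first KO 2-cell library (adjusted p between 0.0568 and 0.068). Nlrp2, Tle6 and Nlrp5 were called at both steps with opposite signs, and the steps share the 1-cell libraries.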

How the results depend on the processing

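The scale between libraries moved the 1-cell results most. Of the 8 genes, 7 were called higher in KO 1-cell embryos as deposited, 2 before the factor, 1 with quantile normalization and 3 with median-ratio size factors. The share of all genes called higher was 52.7% as deposited and 7.36% before the factor. Such shares stand above for the other counts on these scales. They were not computed under the other scalings, so those counts do not set the 8 genes against all genes. With quantile normalization 1 gene, Ooep, was called lower in KO 1-cell embryos (−0.71, limma adjusted p = 0.0169). In the same setting 1 gene, Nlrp4f, was called higher in WT 1-cell embryos than in oocytes (0.67). As deposited 0 genes were called in these directions. From KO oocytes to 1-cell embryos 8 genes were called lower as deposited, 4 before the factor and 3 with quantile normalization. Genotype differences called at the first step went from 5 higher to 1 before the factor, 1 with quantile normalization and 2 with size factors. Those of the second step went from 1 higher to 2, 5 and 3, and from 3 lower to 1 before the factor and 0 with quantile normalization. Before the factor, with quantile normalization and with size factors, in this order, KO against WT at the 1-cell stage was −0.31, −0.58 and −0.36 for Nlrp4f and −0.29, −0.48 and −0.34 for Nlrp9b. Nlrp4f stood at 0.30, 0.67 and 0.29 from WT oocytes to 1-cell embryos, and the second-step difference of Nlrp5 at 0.18, 0.56 and 0.22. From KO oocytes to 1-cell embryos Nlrp4f stood at 0.01 before the factor and 0.25 with quantile normalization, and Nlrp5 at 0.03 with the latter. The second-step difference was 0.92 for Nlrp9b and 0.88 for Nlrp14 with quantile normalization, and 0.75 for Nlrp14 with size factors. The cause of these changes was not tested.

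Leaving out 1 library leaves 1 in its group, so a call in such a fit rests on the spread of the other groups. Calls lost in these fits are given above for each gene. Of 784 single values under all alternatives, these fits included, 34 changed sign while called in neither setting. The pseudocount of 0.1 and the mean of at least 5 FPKM changed no count by over 1.5 times. Deviations of WT and KO libraries with the same number had r of 0.250 in oocytes, 0.121 in 1-cell and −0.268 in 2-cell embryos. Such values cannot tell whether these libraries share more than a number, and the labels do not say. With the replicate block 7 genes were called higher in KO 1-cell and 4 in KO 2-cell embryos, as without it, and the block changed no call of the 8 genes. Nlrp4f, Nlrp14, Nlrp5 and Ooep were called higher in KO 2-cell embryos under each setting that kept all libraries.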
